A study of Schizosaccharomyces pombe with 5 samples.

Results

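Resting fission yeast cells were examined at a single point of their return to growth, 6 h after nitrogen was given back, gene by gene against the G0 cells they came from. All genes that were the only gene named by the annotation of at least 1 spot were members, and spots of a gene were averaged. Of 4819 such genes, 4779 had a value on the 6 h array. The strain on every array was Schizosaccharomyces pombe L972, a heterothallic strain of the minus mating type. It was kept for 48 h in the minimal medium EMM2 without nitrogen at 26 °C to enter G0, then received 4 volumes of fresh EMM2 and stayed at 26 °C. RNA with poly(A) tails of the 6 h cells carried the dye Cy5 and RNA of the G0 cells carried Cy3. Other arrays set cells at 1, 2 and 3.5 h, and vegetative cells in logarithmic growth in EMM2 at 26 °C, against G0 in the same way. No array had the dyes exchanged. A dye effect or an error of the G0 channel at a gene could therefore recur on every array. Fresh medium and nitrogen came together and no culture received only one of them, so their effects cannot be told apart. There was 1 array per condition, which the submitters' design text describes as not repeated, so no test was possible and each call below is one of size alone.

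A fission yeast cell deprived of nitrogen without a partner of the other mating type divides to a small size, stops before DNA replication and becomes a long-lived resting cell. It lives on material recycled by autophagy and carries a strong stress programme. When a nitrogen source returns, the cell is known to rebuild ribosomes and amino acid synthesis, to grow, and only then to replicate its DNA and divide. The transcription factor complex MBF drives genes needed at the start of replication.

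Values are log2 ratios of 6 h cells over G0 cells, so that 1 is 2-fold higher and -1 is 2-fold lower than G0. The gene median was 0.04, the middle of the distribution ran from -0.57 at the 25th percentile to 0.63 at the 75th, and the extremes lay at -7.46 and 5.76. Of the 4779 genes, 744 (15.6%) were at least 2-fold higher than in G0 and 712 (14.9%) at least 2-fold lower, 30.5% together. At least 4-fold distances were met by 438 genes (9.17%), of which 200 (4.18% of all) lay on the higher side and 238 (4.98%) on the lower side. The remaining 3323 genes (69.5%) lay between the 2-fold limits. Just inside the upper limit were rpf1 and erv46 at 1.00, and just outside it was pus4 at 0.999. Just inside the lower limit was glo2 at -1.001, and just outside it was zip2 at -0.999.

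Error could be measured only between repeated spots of the same array. The kinase gene cdc2, the beta-tubulin gene nda3 and the RNA polymerase I subunit gene nuc1 were spotted in all 16 blocks, and their log2 ratios were 0.69 ± 0.31, 1.06 ± 0.32 and 1.55 ± 0.22 (SD, 16 spots each). Their pooled SD was 0.289. For 12 positions that had no gene name in any block, the pooled SD between blocks was 0.471. That each of these positions held the same material in every block was assumed. With 4815 of the 4819 genes on 1 spot, most values carry no error of their own, and a gene near a 2-fold limit lies within spot error of the other side. Block medians ran from -0.098 to 0.302. Near-identical genes such as the paired ribosomal protein genes, the histone H3 and H4 copies, mfm1 and mfm3, or nda2 and atb2 may share signal on cDNA spots, and their separate values are uncertain. A pool of many cells was measured, so a change in the share of cells in a state and a change in RNA per cell cannot be told apart.

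**Figure D1:**
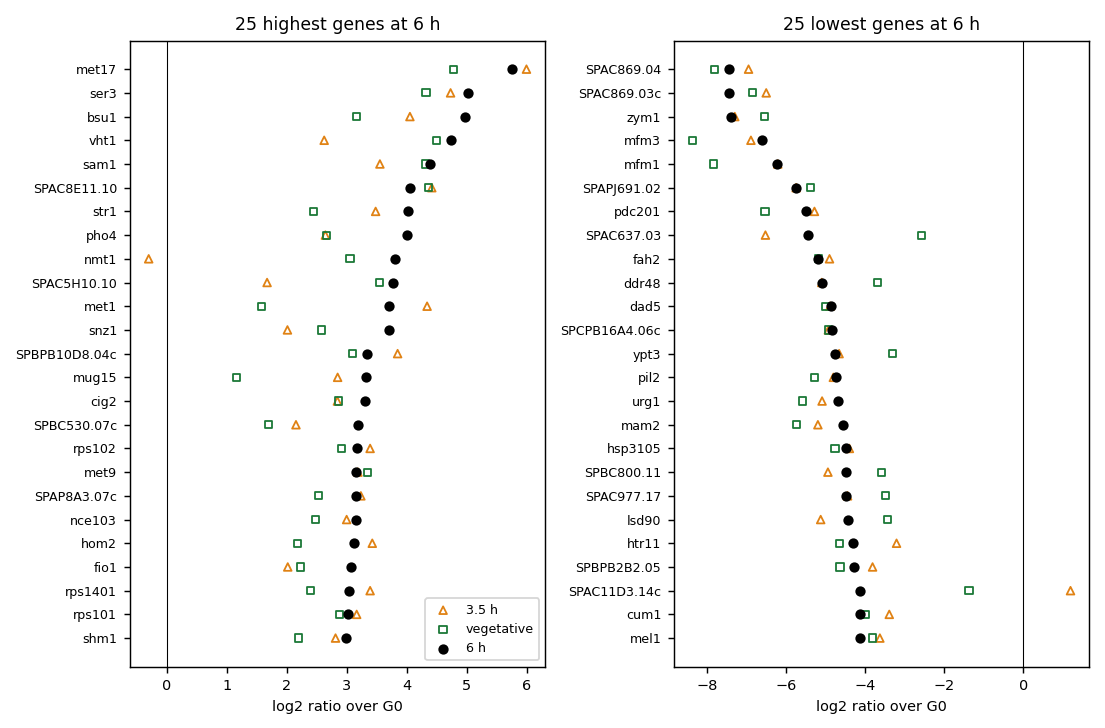
The 25 highest and 25 lowest genes at 6 h (black points) with the same genes at 3.5 h (triangles) and in vegetative cells (squares), as log2 ratios over G0 with 1 array each. The 25 high genes lie above G0 on both other arrays too, except nmt1 at 3.5 h.

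Among the highest genes at 6 h were many that supply sulfur, serine, vitamins and metals. The highest of all was met17, which encodes an enzyme that fixes sulfide into homocysteine. In the order of arrays kept from here on, which is 1, 2, 3.5 and 6 h and then vegetative cells, its log2 ratios were 5.69, 4.75, 5.99, 5.76 and 4.78, so it was high on every array. Next came ser3, the first enzyme of serine synthesis, at 5.02, and the vitamin B6 transporter gene bsu1 at 4.96. The biotin transporter gene vht1 stood at 1.21, 1.78, 2.62, 4.73 and 4.50 over the arrays, so that it was far higher at 6 h and in vegetative cells than at 1 h. The S-adenosylmethionine synthetase gene sam1 was at 4.38, the siderophore transporter gene str1 at 4.03 and the thiamine-repressible acid phosphatase gene pho4 at 4.01. The carbonic anhydrase gene nce103 was lower here (3.15) than on the 1 h array (6.68), although still far above G0. The plot of the 25 highest and lowest genes shows how close most of them were to the 3.5 h and vegetative arrays.

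The lowest genes included those of mating, metal binding and starvation metabolism. The neighbouring genes SPAC869.04 and SPAC869.03c were at -7.46 and -7.45. The metallothionein gene zym1, whose product binds zinc, was at -3.40, -6.07, -7.30, -7.39 and -6.55 over the arrays, with its lowest value at 6 h. The M-factor genes mfm3 and mfm1, which encode the mating pheromone of minus cells, stood at -6.61 and -6.22. The pyruvate decarboxylase gene pdc201 was at -5.50, the stress gene ddr48 at -5.08, the gene of the Rab GTPase ypt3 at -4.76, the eisosome gene pil2 at -4.75 and mam2, which encodes the receptor for the other mating type's pheromone, at -4.56. At the low end, SPAC637.03 differed most from vegetative cells, with -5.45 at 6 h, -6.52 at 3.5 h and -2.56 in vegetative growth.

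**Figure D2:**
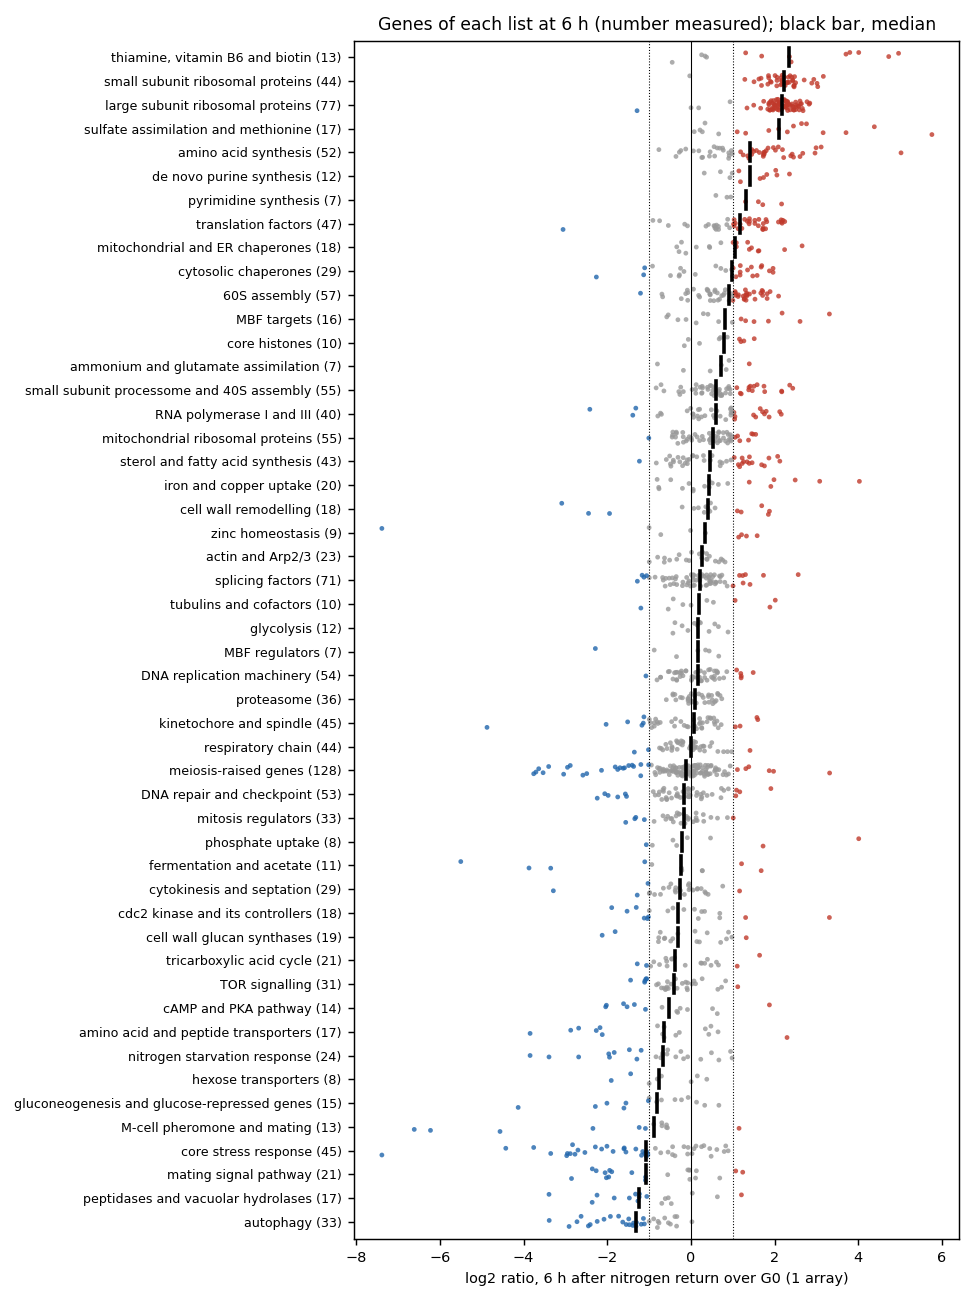
Log2 ratio at 6 h over G0 of each measured gene (points) in the gene lists with at least 7 measured members, with the list median as a black bar, red for at least 2-fold higher and blue for at least 2-fold lower. Ribosomal proteins and vitamin supply lie at the top and autophagy, peptidases and mating signalling at the bottom, while no member of the glycolysis, proteasome or actin lists lies beyond a 2-fold limit.

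As the plot of all list members shows, ribosomal protein genes had the largest shares of higher genes among the lists. They were 94.8% for the large and 97.7% for the small subunit, against 15.6% of all genes. Of 77 measured genes of the large subunit, 73 were at least 2-fold higher than in G0 and 1 at least 2-fold lower, with a median of 2.19 against 0.04 over all genes. Of 44 genes of the small subunit, 43 were higher and none lower, with a median of 2.21. The highest were rps102 at 3.17 and rps1401 at 3.03, and in the large subunit rpl2702 at 2.84 and rpl35 at 2.83. Members that departed from the rest were mainly 1 copy of a pair. The gene rpl501 was at -1.29 while its partner rpl502 was at 1.86, rpl301 was at 0.00 while rpl302 was at 2.46, and rpl1202 was at 0.19 while rpl1201 was at 2.08. The list medians from 1 h to vegetative cells were 2.19, 2.26, 2.58, 2.19 and 1.88 for the large subunit. For the small subunit they were 2.25, 2.29, 2.69, 2.21 and 1.93. Both were highest at 3.5 h, and the median difference of 6 h minus 3.5 h was -0.40 (large) and -0.42 (small).

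Ribosome assembly genes stood lower than ribosomal proteins at this time. For the small subunit, 15 of 55 assembly genes were at least 2-fold higher (27.3%, against 15.6% of all genes) and none lower. Their median was 0.61. The proteins of the box C/D particles, which guide methylation of ribosomal RNA, led this list, with snu13 at 2.44, nop58 at 2.36, fib1 at 2.17 and nop56 at 1.76. For the large subunit, 26 of 57 genes were higher (45.6%) and 1 lower (1.75%), with a median of 0.91. Among these were the helicase gene dbp3 at 2.10, the ribosomal protein chaperone gene rrb1 at 1.89, and the H/ACA particle genes nhp2 at 1.72, cbf5 at 1.70, gar1 at 1.53 and nop10 at 1.33. The helicase gene has1 was the member below the lower limit, at -1.21. Medians of these assembly lists ran 2.67, 2.43, 1.43, 0.61 and 0.66 (small subunit) and 2.73, 2.60, 1.58, 0.91 and 0.76 (large subunit) from 1 h to vegetative cells. By 6 h they were thus near the vegetative values, while the 1 h values were more than 2-fold above both.

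The RNA polymerases that transcribe ribosomal and transfer RNA gave 12 of 40 genes at least 2-fold higher and 3 lower, with a median of 0.59. The polymerase I genes ker1 (2.16), rpa2 (1.87) and rpa43 (1.80) and the polymerase III gene rpc17 (2.12) were the highest. The genes at the low end were maf1 (-1.32), which encodes the repressor of polymerase III, and brf1 (-1.39) and bdp1 (-2.42), which encode parts of its initiation factor. Translation factors were higher more often, 29 of 47 with 1 lower, and their median was 1.18. All subunits of initiation factor 2 stood near 2 (tif211 at 2.16, tif212 at 2.09 and tif213 at 2.20). The gene on the low side, hri1 at -3.06, encodes a kinase that inhibits this factor. Its relatives hri2 and gcn2 were at 0.36 and -0.15. Mitochondrial ribosomal protein genes were mostly between the limits, with 7 of 55 higher (12.7%), 1 lower (1.82%) and a median of 0.53. Over all genes, 15.6% were higher and 14.9% lower.

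**Figure D3:**
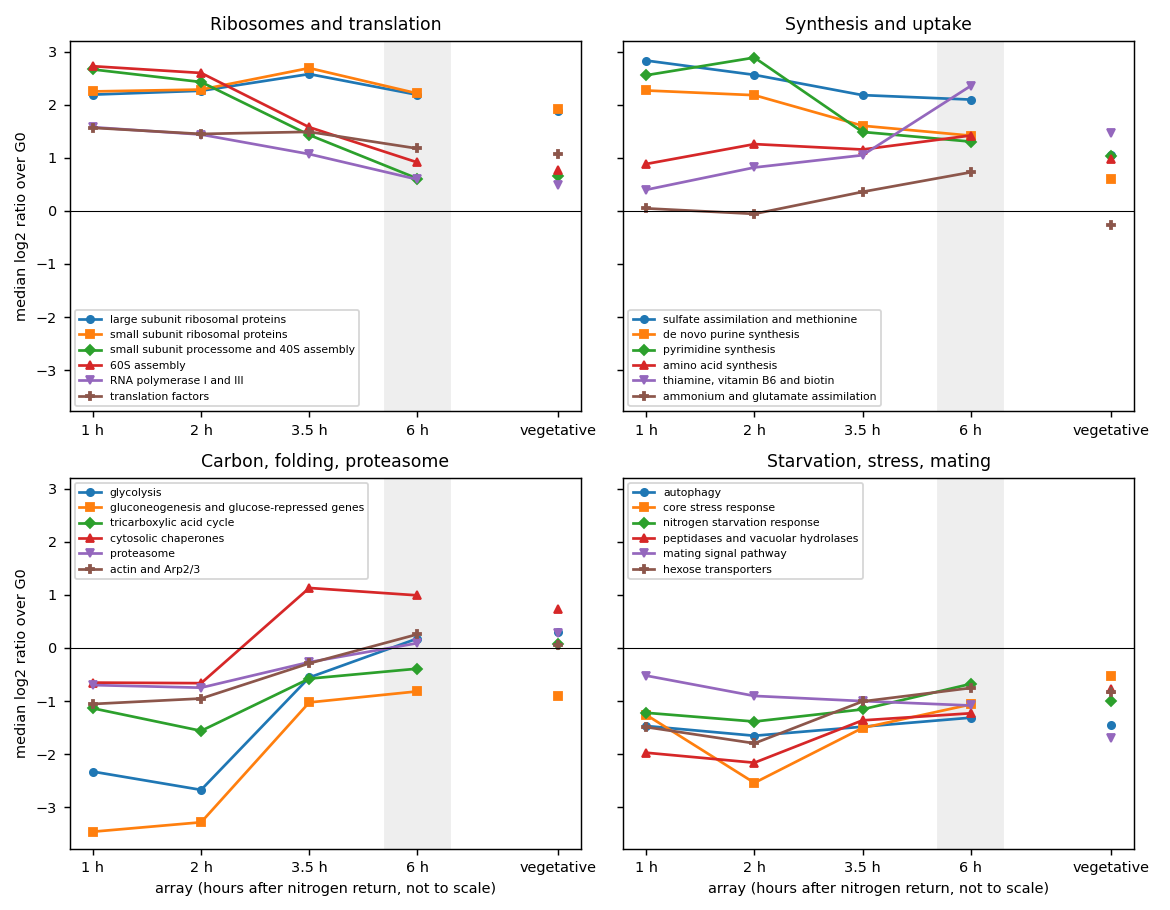
Median log2 ratio over G0 of 24 gene lists on each of the 5 arrays, 1 array per condition, with the 6 h array shaded and vegetative cells set apart at the right. Ribosome assembly medians come down from 1 h to 6 h, glycolysis comes up from -2.33 to 0.18, and autophagy stays below G0 on every array.

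De novo purine synthesis had 8 of 12 genes at least 2-fold higher and none lower, with a median of 1.42, led by ade10 at 2.36, gua1 at 2.06 and gua2 at 2.03. Pyrimidine synthesis had 4 of 7 higher and none lower, with a median of 1.31, and its highest gene ura3, for dihydroorotate dehydrogenase, was at 2.17 after 4.58 at 1 h. In sulfate assimilation and methionine synthesis 12 of 17 genes were higher and none lower, with a median of 2.10. Beside met17 and sam1 these were met1 (3.71), which serves the siroheme cofactor of sulfite reductase, met9 (3.16), which reduces methylenetetrahydrofolate, met26 (2.64), the methionine synthase gene, and sul1 (2.45), a sulfate transporter gene. The met1 gene was at 5.47 at 1 h and 1.58 in vegetative cells, so that its 6 h value lay between them. The shares of higher genes were 66.7% for purine, 57.1% for pyrimidine and 70.6% for sulfur genes, against 15.6% of all genes.

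Amino acid synthesis had 30 of 52 genes at least 2-fold higher (57.7%, against 15.6% of all genes) and none lower, with a median of 1.42. The lysine pathway was well represented, with lys12 at 2.97, lys4 at 2.61, lys3 at 2.45, lys2 at 2.22 and lys1 at 1.74. The shared branch to threonine and methionine had hom2 at 3.11 and hom3 at 2.67, and the serine and glycine genes shm1, ser2 and gly1 stood at 2.99, 2.19 and 2.09. Arginine genes were lower placed: arg3 was at 1.45 and arg1 at 0.99, arg5, arg6, arg4, arg11 and arg12 lay between 0.06 and 0.46, and arg7 was at -0.77. Genes that take up and fix ammonium showed less, with 1 of 7 higher (14.3%, near the share of all genes) and none lower. Their median was 0.73 against -0.26 in vegetative cells. The member past the limit was gdh1, the glutamate dehydrogenase gene that works in ammonium assimilation. It was at -2.64, -2.35, 0.61, 1.40 and 1.12 over the arrays, below G0 early and above it late. The glutamine synthetase gene gln1 was at -0.18 and the ammonium transporter genes amt1, amt2 and amt3 at -0.80, 0.84 and 0.46.

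Vitamin genes gave the highest median of all lists, 2.36. Of 13, 9 were at least 2-fold higher (69.2%, against 15.6% of all genes) and none lower. The thiamine synthesis gene nmt1, whose promoter is widely used because thiamine represses it, was at -0.69, -1.87, -0.30, 3.80 and 3.06 over the arrays. It was below G0 at 1 and 2 h, near it at 3.5 h and far above it on the other 2 arrays. The vitamin B6 synthesis genes snz1 (3.71) and sno1 (2.40), the biotin synthase gene bio2 (2.36) and the thiamine genes thi4 (1.69) and thi9 (1.31) were also past the limit. The thiamine gene thi2 was at 0.34 and the thiamine transporter gene thi7 at -2.69, although thi7 was not a listed gene and was picked out after its value was seen. In vegetative cells the list median was 1.48 and at 1 h it was 0.40.

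Among metal and phosphate genes, iron and copper uptake had 6 of 20 genes higher and none lower, with a median of 0.44. These were str1, the heme transporter gene str3 (2.49), the ferroxidase and permease pair fio1 (3.08) and fip1 (1.91), the copper transporter gene ctr4 (1.99) and the siderophore synthesis gene sib2 (1.40). The fio1 gene was at 0.17 at 1 h and at 2.23 in vegetative cells. In zinc homeostasis 4 of 9 were higher (zrt1 at 1.58, zhf1 at 1.33, adh4 at 1.21 and zrg17 at 1.14) and zym1 was lower. Phosphate uptake had 2 of 8 higher and 1 lower, with a median of -0.21. The shares of higher genes were 30% for iron and copper, 44.4% for zinc and 25% for phosphate, against 15.6% of all genes. The shares of lower genes were 11.1% for zinc and 12.5% for phosphate, against 14.9%.

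**Figure D4:**
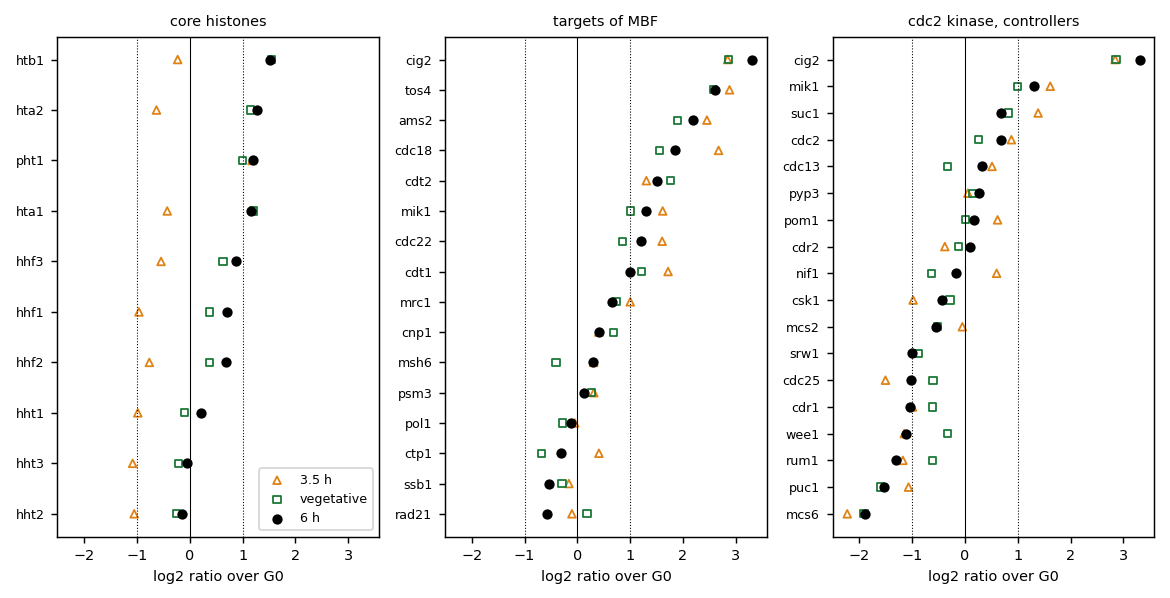
Log2 ratio over G0 of core histone genes, MBF target genes, and cdc2 kinase and its controllers at 6 h (black points), 3.5 h (triangles) and in vegetative cells (squares), with 1 array each. Histone genes other than pht1 lie to the right of their 3.5 h values.

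Some genes of the start of DNA replication were above G0 at 6 h. Of 16 MBF targets, 7 passed the upper limit (43.8%, against 15.6% of all genes) and none the lower, with a median of 0.83. They were the S-phase cyclin gene cig2 (3.31), tos4 (2.61), the histone gene regulator ams2 (2.18), the replication licensing gene cdc18 (1.85), the ubiquitin ligase adaptor gene cdt2 (1.51), mik1 (1.31), which encodes an inhibitory kinase of Cdc2, and the ribonucleotide reductase gene cdc22 (1.20). The cig2 gene was at -0.04, -0.34, 2.84, 3.31 and 2.86 over the arrays, so it was near G0 early and high on the last 3. The cdc18 gene was at 0.10, 0.24, 2.67, 1.85 and 1.55, with its highest value at 3.5 h. The list median was 1.15 at 3.5 h and 0.80 in vegetative cells, and no member of this list differed by 2-fold between 6 h and either of them. Of 7 genes of the MBF complex and its regulators none was higher and rep1 was lower, at -2.28.

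Core histones differed from the MBF targets in their order over the arrays, as the plot of cell cycle genes shows. At 6 h, 4 of 10 were at least 2-fold higher than in G0 (40%, against 15.6% of all genes) and none lower, with a median of 0.79. They were htb1 (1.51), hta2 (1.27), pht1 (1.20), which encodes the variant H2A.Z, and hta1 (1.16). The H2B gene htb1 was at -0.18, -1.02, -0.23, 1.51 and 1.54 over the arrays. The H2A gene hta2 was at -1.16, -1.73, -0.63, 1.27 and 1.16. The hta2 gene was thus below G0 at each earlier time. For htb1 only the 2 h value was clearly below. Its values at 1 and 3.5 h lay within the control spot SD of those arrays (0.267 and 0.243) from G0. Both genes were at about their vegetative value at 6 h. Set against the 3.5 h array, on which 4.13% of all genes were at least 2-fold below their 6 h value, 8 of 10 histone genes were above by 2-fold or more and the median difference was 1.43. Against vegetative cells no histone gene differed by 2-fold.

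The replication machinery itself was close to G0, with a median of 0.16. Of its 54 genes, 5 were higher (9.26%, against 15.6% of all genes) and 1 lower (1.85%, against 14.9%). The higher ones were the sliding clamp gene pcn1 (1.49), the helicase genes mcm4 (1.20), mcm3 (1.19) and mcm2 (1.09), and cdc22. Other helicase genes were lower placed, with mcm5 at 0.63, mcm7 at 0.61 and mcm6 at -0.12. The kinase cdc2 and its controllers gave 2 of 18 higher (11.1%), both also counted as MBF targets (cig2 and mik1), and 6 lower (33.3%). On the low side were the G1 inhibitor gene rum1 (-1.31), the G1 cyclin gene puc1 (-1.53), the inhibitory kinase gene wee1 (-1.12), the gene of its own inhibitor cdr1 (-1.04), the activating phosphatase gene cdc25 (-1.02) and mcs6 (-1.89), which encodes a kinase that activates Cdc2. Genes of both entry into and restraint of mitosis were thus below G0. The mitotic cyclin gene cdc13 was at 0.33.

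Later cell cycle genes lay near G0. In the mitosis, kinetochore and cytokinesis lists the shares of higher and of lower genes were below the 15.6% and 14.9% of all genes. They were 3.03% and 12.1%, 8.89% and 13.3%, and 3.45% and 10.3%, in that order. Mitosis regulators had 1 of 33 higher, the phosphatase gene dis2 at 1.01, and 4 lower, including the securin gene cut2 (-1.34) and the spindle checkpoint genes mad2 (-1.11) and mad3 (-1.32). Kinetochore and spindle genes had 4 of 45 higher and 6 lower, with the outermost values for the DASH complex gene spc34 (1.599) and for dad5 (-4.87), of the same complex. Cytokinesis genes had 1 of 29 higher, the anillin-like gene mid2 (1.16), and 3 lower, of which the myosin gene myp2 (-3.29) was the farthest. The alpha-tubulin genes atb2 (2.02) and nda2 (1.89) and beta-tubulin nda3 were higher, while no actin or Arp2/3 gene of 23 passed a limit.

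Cytosolic chaperone genes had a median of 0.99. Of 29, 3 passed the lower limit (10.3%, against 14.9% of all genes) and 14 the upper (48.3%, against 15.6%). These included the ribosome-bound chaperone gene sks2 and the nucleotide exchange factor gene pss1 (both 1.96), hsp90 (1.88) with its partner wos2 (1.69), and the chaperonin genes cct3 (1.48) and cct8 (1.35). Genes on the low side were the heat shock factor gene hsf1 (-1.13), the small heat shock protein gene hsp16 (-1.10) and hsp3101 (-2.26). For mitochondria and the endoplasmic reticulum, 10 of 18 were higher and none lower, with hsp10 at 2.66 and bip1 at 2.24. The hsp90 gene was at -1.69, -0.98, 2.47, 1.88 and 1.59 over the arrays, on the other side of G0 at 1 h. Proteasome genes were all between the limits, 36 of 36, from -0.59 for pre3 to 0.74 for pre5.

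Lipid synthesis genes had 15 of 43 higher (34.9%) and 1 lower (2.33%), with a median of 0.47. Over all genes the shares were 15.6% and 14.9%. The phosphatidylcholine pathway genes cho2 (2.13) and cho1 (2.07) led, followed by the sterol genes erg6 (1.86), erg31 (1.76) and erg4 (1.69). The fatty acid genes fas1 (1.40) and cut6 (1.39), the latter for acetyl-CoA carboxylase, were also past the limit, and the sphingolipid hydroxylase gene sur2 was lower at -1.23.

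Central carbon genes were mostly near G0 by 6 h. None of 12 glycolysis genes passed a limit, with a range from -0.43 for tdh1 to 0.89 for pyk1 and a median of 0.18. The glyceraldehyde-3-phosphate dehydrogenase gene tdh1 had ratios of -4.13, -6.13, -1.52, -0.43 and 0.19 over the arrays. The list medians from 1 h to vegetative cells were -2.33, -2.67, -0.56, 0.18 and 0.31. Glucose-repressed and gluconeogenic genes had none of 15 higher and 6 lower, with the alpha-galactosidase gene mel1 at -4.13 and the gluconeogenic gene fbp1 at -1.02. In fermentation and acetate metabolism pdc201 and the aldehyde dehydrogenase genes atd2 (-3.87) and atd3 (-3.35) were low while the acetyl-CoA synthetase gene acs1 was at 1.68. The tricarboxylic acid cycle list had 2 of 21 higher, the pyruvate dehydrogenase genes pdb1 (1.64) and pda1 (1.11), and 2 lower. The respiratory chain had 1 of 44 higher and 2 lower, with a median of 0.00. Of 8 hexose transporter genes none was higher and 2 were lower, ght2 at -1.90 and ght4 at -1.44. The shares of lower genes were 40% for glucose-repressed genes and 25% for hexose transporters, against 14.9% of all genes. The tricarboxylic acid cycle (9.52% each way) and the respiratory chain (2.27% higher, 4.55% lower) were below the 15.6% and 14.9% of all genes.

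On the lower side of G0, autophagy genes formed the list with the lowest median, -1.31. None of 33 was at least 2-fold higher and 21 were at least 2-fold lower (63.6%, against 14.9% of all genes), and 32 lay below 0. The protease gene atg4 was at -2.91, the scaffold gene atg13 at -2.72, the ubiquitin-like gene atg8 at -2.45 and the kinase gene atg1 at -1.73. The mitophagy receptor gene atg43 was lowest at -3.39. The atg8 gene was at -2.68, -2.94, -2.83, -2.45 and -2.09 over the arrays, and so was low throughout. Of 17 peptidase and vacuolar hydrolase genes, 10 were lower (58.8%) and 1 higher (5.88%). The serine protease gene isp6 was at -3.39 and carboxypeptidase Y, cpy1, at -2.24. Nitrogen starvation response genes had 9 of 24 lower (37.5%) and none higher, with a median of -0.68. The amino acid permease gene isp5 was at -5.30, -5.45, -5.16, -3.84 and -4.48. The medians of these starvation lists and of ribosomal proteins lay on the same sides of G0 in vegetative cells. There they were -0.99 for nitrogen starvation response, -1.45 for autophagy and 1.88 for large subunit ribosomal proteins. The lists were chosen with earlier results of these data known, so these directions are no check of the labels.

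Amino acid and peptide transporter genes were divided, with 5.88% higher and 35.3% lower, against 15.6% and 14.9% of all genes. The permease gene aat1 was at 2.30 after 5.86 at 1 h, and it was the 1 gene of 17 past the upper limit. Below the lower limit were 6 genes, all at least 4-fold lower than G0: isp5, dal51 (-2.87), isp4 (-2.68), which encodes an oligopeptide transporter, the uracil permease gene fur4 (-2.26), the peptide transporter gene ptr2 (-2.17) and put4 (-2.12). The fur4 and dal51 products carry other nitrogen compounds than amino acids.

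Core stress genes had 25 of 45 at least 2-fold lower (55.6%, against 14.9% of all genes) and none higher, with a median of -1.06. After zym1, the lowest were lsd90 (-4.42), mug143 (-3.76), atd3, the nuclear envelope gene ish1 (-2.97), the glutathione transferase gene gst3 (-2.95), the neutral trehalase gene ntp1 (-2.88), hsp9 (-2.83) and the catalase gene ctt1 (-2.77). The ctt1 gene was at -1.44, -5.41, -4.80, -2.77 and -1.07 over the arrays, with its lowest value at 2 h. The stress transcription factor gene atf1 was at -1.59. Within the list, ssa1 (0.83), trx2 (0.80) and the superoxide dismutase gene sod1 (0.62) lay above G0 without passing the limit.

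Of 13 genes of the minus mating type and its pheromone, 6 were at least 2-fold lower and 1 higher, with a median of -0.89. Beside mfm1, mfm3 and mam2, the pheromone exporter gene mam1 was at -2.34, the P-factor peptidase gene sxa2 at -1.24 and the mating type gene mat1-Mc at -1.09. The receptor gene map3, which the other mating type uses, was at 1.15. The mating signal pathway had 11 of 21 lower and 2 higher, with ste7 at -2.85, the kinase gene spk1 at -2.36, the formin gene fus1 at -2.05 and the G protein gene gpa1 at -1.94. The mating transcription factor gene ste11 was at -1.47, -1.37, -1.08, -0.55 and -2.32, so it was closest to G0 at 6 h. Meiotic genes had 22 of 128 lower (17.2%) and 6 higher (4.69%), against 14.9% and 15.6% of all genes. The highest of them, mug15 at 3.32, had a vegetative value of 1.17.

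Signalling lists differed in their share of genes at least 2-fold lower, which was 14.9% over all genes. It was 42.9% in the cAMP and protein kinase A list and 16.1%, near that of all genes, in the TOR list. The cAMP and protein kinase A list had 6 of 14 lower, among them the glucose receptor gene git3 (-1.53), the G protein beta gene git5 (-2.02), the regulatory subunit gene cgs1 (-1.61) and the catalytic subunit gene pka1 (-1.35). Its only higher member was hsp90, counted there under its older name git10. The TOR list had 5 of 31 lower, with tsc1 at -1.44, and 1 higher, bit61 at 1.12. DNA repair genes had 4 of 53 higher, led by the checkpoint gene hus1 (1.91), and 6 lower, among them rad50 (-2.24) and nbs1 (-2.06), which encode parts of the same break repair complex, and the checkpoint kinase gene cds1 (-1.98). Splicing factors had 8 of 71 higher, with prp43 at 2.56, and 4 lower. The higher and lower shares were 7.55% and 11.3% for DNA repair and 11.3% and 5.63% for splicing. All were below the 15.6% and 14.9% of all genes. Of 18 cell wall remodelling genes, 5 were higher (27.8%), 3 lower (16.7%) and 10 between the limits, with a median of 0.41. The glucanosyltransferase genes gas1 and gas2 were at 1.85 and 1.88, while psu2 was at -3.09.

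**Figure D5:**
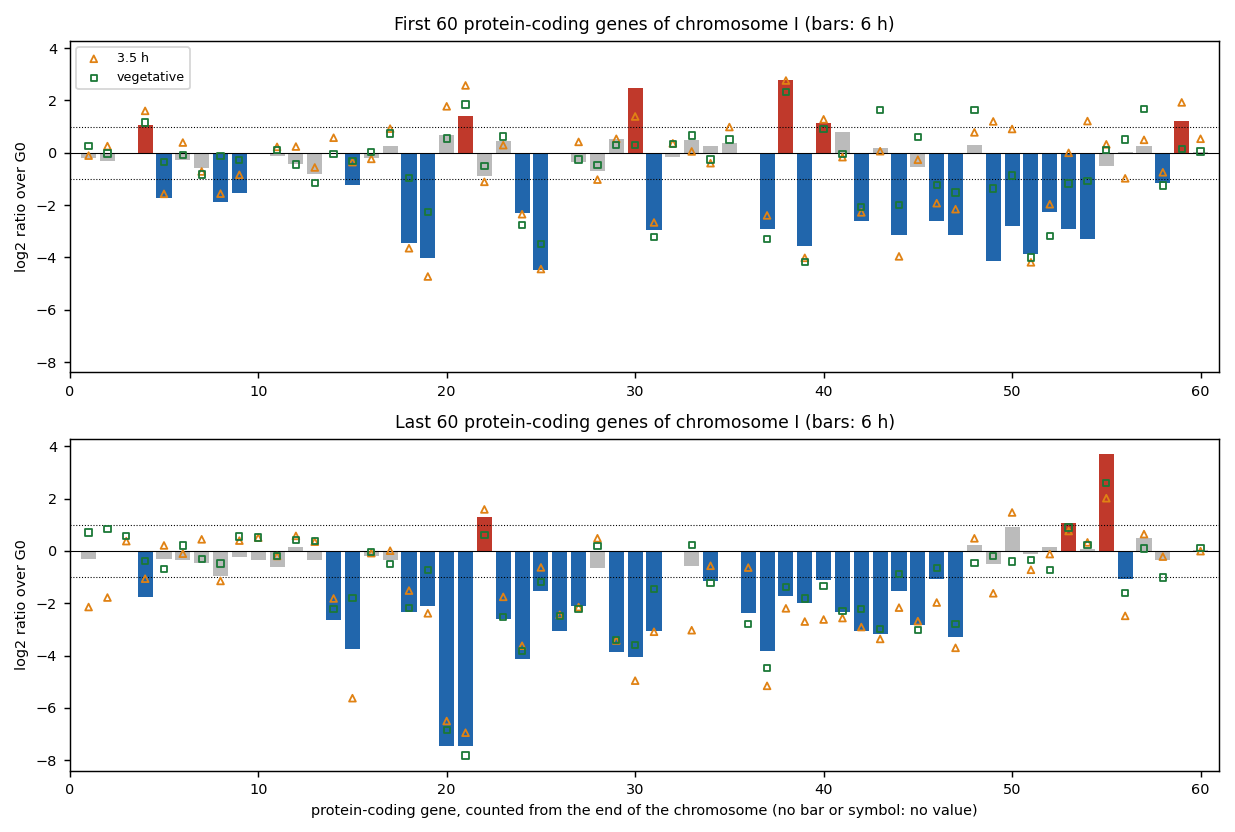
Log2 ratio over G0 of the 60 protein-coding genes nearest each end of chromosome I in gene order, as bars for 6 h, with triangles for 3.5 h and squares for vegetative cells. A run of 13 low neighbours lies near the last end, and the run of 6 near the first end holds genes that were above G0 at 3.5 h.

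Low genes were unevenly placed along the chromosomes. Of the 146 measured genes among the 30 outermost of each chromosome end, 43 (29.5%) were at least 2-fold lower and 19 (13%) higher, against 14.2% and 15.8% of the other 4583 genes that could be placed. The share of low genes was 38.6% at the ends of chromosome I, 30.3% at those of II and 19.6% at those of III. Genes known only by a systematic identifier were low more often than genes with a name, 26.5% of 735 against 12.5% of 3994, and high less often, 9.52% against 16.8%. In 4 classes of about equal number by gene length, the shortest genes (129 to 1259 bases) had 20.8% high and 13.3% low, and the longest (2578 to 15232 bases) 9.98% high and 15.3% low. Members of a length class share position and function with others, and which of these the shares follow was not tested.

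Runs of at least 4 neighbouring measured genes past a 2-fold limit on the same side numbered 11 on the low side, with 60 genes, and 4 on the high side, with 18. The longest had 13 low genes near the last end of chromosome I, from SPAC29B12.13 to SPAC922.03. It held the transcription factor gene klf1 and isp5, and its values ran from -3.84 to a little past the limit. A run of 6 lay near the first end, from SPAC11D3.14c to dgc1. Within it SPAC11D3.14c was at 0.44, 2.58, 1.20, -4.14 and -1.37 over the arrays, and dgc1 at -0.13, 1.89, 1.21, -3.30 and -1.08. Their neighbour SPAC11D3.18c was at -1.26, 0.16, 0.00, -2.90 and -1.18. For these 3 genes and for SPAC11D3.15 (-2.81 at 6 h) the 6 h value was the lowest of the 5 arrays. The other 2 genes of the run were below G0 on all arrays and lower on another array than at 6 h, SPAC11D3.16c with -4.19 at 3.5 h against -3.87 and SPAC11D3.17 with -3.26 at 1 h against -2.26. On chromosome II, a run of 5 held thi7, the nucleoside hydrolase gene urh1, the maltase gene mal1 and ght4. Of the 4 high runs, the one with the ribosomal protein gene rpp203 and the plasma membrane proton pump gene pma1 on chromosome I had 5 genes.

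Values at 6 h differed from those at 3.5 h by at least 2-fold for 333 of 4768 genes (6.98%), 197 higher and 136 lower at 6 h, where 2.85% is the share of the latter. Both arrays carried G0 RNA in the other channel. Centring each array on its gene median moved this split to 254 higher and 94 lower, and centring each block to 260 and 80, so the balance of the 2 sides depends on the scaling. The largest difference was that of nmt1, 4.10, followed by thi2 (2.87), the glutathione peroxidase gene gpx1 (2.87) and the malic enzyme gene mae2 (2.60). The gpx1 gene was at -4.19 at 3.5 h and -1.32 at 6 h, so it was still below G0. On the other side were SPAC11D3.14c (-5.34), dgc1 (-4.51), the serine racemase gene sry1 (-2.46) and ste6 (-1.76), which encodes an activator of Ras in mating. Among the lists, the assembly of the small and large subunits had 13 of 55 and 14 of 57 genes at least 2-fold lower at 6 h than at 3.5 h and none higher. Core stress genes had 8 of 45 higher and 2 lower, and vitamin genes 5 of 13 higher and none lower. Over all genes, 4.13% were higher and 2.85% lower. These counts by list are for values as deposited and were not redone after centring.

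From vegetative cells, 265 of 4756 genes (5.57%) differed by at least 2-fold, 121 higher (2.54%) and 144 lower (3.03%) at 6 h. Centring turned this balance to 147 higher and 128 lower, block centring to 131 and 123, and scaling the arrays to a common spread gave 439 genes in place of 265. The widest was adg1 at -5.62. Its ratios to G0 were -0.27, -0.64, -0.27, -0.82 and 4.80 over the arrays, so it was high in vegetative cells alone. The glucanase gene agn1 was at -0.01 at 6 h and 3.22 in vegetative cells, a difference of -3.23. On the other side stood SPBC23G7.13c (3.81), str3 (2.19), mug15 (2.15), met1 (2.12), the NAD-linked glutamate dehydrogenase gene gdh2 (2.11) and the meiotic genes mei4 (1.96) and rec7 (1.90). The mei4 gene was at -0.04 at 6 h and -2.004 in vegetative cells, and rec7 at 0.04 and -1.86, so both were near their G0 level at 6 h. Of sulfur genes 4 of 17, of amino acid synthesis genes 5 of 52 and of vitamin genes 4 of 13 were at least 2-fold above vegetative cells and none below. Genes on opposite sides of G0 by 2-fold on both arrays were few, 1 high at 6 h and low in vegetative cells and 5 the reverse.

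Far more genes had crossed sides since 1 h. The spread was wider at 1 h, however, with a median absolute deviation of 0.905 against 0.597 at 6 h and 0.607 in vegetative cells. A fixed limit is thus passed more readily at 1 h, and the counts of crossing genes were not redone after scaling. Of 4718 genes with values at 1, 3.5 and 6 h and in vegetative cells, 33 were at least 2-fold higher than G0 at 6 h and at least 2-fold lower at 1 h, among them gdh1, hsp90, hsp10 and hta2. The reverse held for 30, of which psu2 was at 7.16 at 1 h and -3.09 at 6 h. The hexose transporter gene ght2 was at 3.20 and -1.90, and the glycerophosphodiester transporter gene tgp1 at 1.99 and -3.18. The columns of the 1 h and 2 h arrays were deposited with 9 decimals and the others with 3, and whether they shared a G0 preparation is not stated, so a difference of preparation cannot be told apart from time here.

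Past 2-fold at 6 h while within 1.5-fold of G0 at 3.5 h and in vegetative cells were 20 genes, 8 higher and 12 lower. On the higher side were the heterochromatin gene raf2 (1.55), cut6 (1.39), the membrane anchor gene gpi1 (1.28), the transfer RNA modification gene tyw3 (1.17) and zwf1 (1.05), which encodes the entry enzyme of the pentose phosphate pathway. On the lower side were pxa1 (-1.99), gpi14 (-1.99) and mmi1 (-1.48), which removes meiotic transcripts. The gpi14 gene went from 0.41 (3.5 h) to -1.99 (6 h), against 0.42 in vegetative growth. Several of these genes were away from G0 earlier. At 1 and 2 h tyw3 was at 1.66 and 1.86, above its 6 h value, zwf1 was at -1.15 and -2.27, and cut6 at -1.69 and -0.66. With block centring gpi1 and tyw3 no longer passed the limit, at 0.98 and 0.91. With 1 spot each, these values rest on a single measurement at 6 h.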

How the data were processed

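The 6 h array held 5184 spots in 16 blocks. The deposited value of a spot is a log ratio of Cy5 over Cy3, with direction taken from the dyes, per the labels. No source used here gives the logarithm's base, and the deposited values were taken as log2 by assumption. Nor do the sources used here give the image analysis, any correction for background or the normalization, and spot intensities were not used here. The authors' rows of averages at the end of the table were left out. The free-text description of the 3.5 h, 6 h and vegetative samples names 2 h, against their titles, sources and protocols, which were followed. Annotation named 1 gene for 4865 spots, several for 22 and none for 297, and 4839 matched the RefSeq table of assembly ASM294v3, which gave current symbols, gene order and length. Spots of a gene were averaged, and all 16 spots of nda3 were kept.

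A gene counted as different at a log2 ratio, or a difference of log2 ratios between arrays, of at least 1 or at most -1. This is a rule of size. Members and the gene lists were chosen with earlier results of these data known. Listed symbols were matched by current and then by older symbol, and 9 symbols that name a gene of another function were taken out of the lists after values were seen. Some genes are in more than 1 list, and 1 list is not reported here. Named genes were the 25 highest and lowest, up to 6 highest and 6 lowest of each list (all members of small lists), the 10 largest differences either way from 3.5 h and from vegetative cells, genes past 2-fold at 6 h but within 1.5-fold of G0 at 3.5 h and in vegetative cells, control spots and genes at the limits. Other genes named (partner copies of ribosomal protein genes, members of the lysine, arginine, helicase and initiation factor 2 groups, and genes within runs or crossing sides since 1 h) were chosen after their values were seen. A planned description of promoter motifs was not made, because no promoter sequences were used here. The steps were tested on simulated data. Python 3.11.15, numpy 2.4.6, pandas 2.3.3 and matplotlib 3.10.9 were used. Alternatives were centring, block centring, scaling of spread, other handling of repeated spots, genes measured on all arrays, list means and a natural logarithm.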

Additional observations from a re-analysis of the deposited data

Results flagged for a closer look

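Genes that lay at least 2-fold from G0 on opposite sides at 6 h and on a neighbouring array stood out. Against 3.5 h these were SPAC11D3.14c (-4.14 at 6 h, 1.20 at 3.5 h) and dgc1 (-3.30 and 1.21), which lie in the same run of neighbouring genes. Against vegetative cells they were SPAC27D7.09c (-2.46 at 6 h, 1.67 in vegetative cells), SPBC23G7.13c (1.70 and -2.11), SPCC306.11 (-1.16 and 1.70), adg3 (-1.34 and 1.503), cbm1 (-1.24 and 1.59) and rds1 (-1.15 and 1.55). With 1 array per condition, none of these differences was tested.

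Spots to which the annotation gives no gene or several genes were outside the comparisons, and 57 of 318 with a value (17.9%) lay at least 2-fold from G0 at 6 h, against 30.5% of named genes.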

How the results depend on the processing

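With 1 array and mostly 1 spot per gene, no value has a replicate check, and the spread between spots is the only error. No paired analysis was possible because each condition had 1 array. Of single genes, 68 were run under the alternatives. They were the 25 highest, the 25 lowest and up to 10 a side of those past 2-fold at 6 h but within 1.5-fold of G0 at 3.5 h and in vegetative cells. None changed sign, but block medians from -0.098 to 0.302 and a factor of 1.22 could not turn the sign of a gene past a limit. List medians are given here where they moved by more than 0.289, the SD of single control spots, which is a yardstick of size and says nothing about the error of a median. Scaling the arrays to a common spread, a factor of 1.22 at 6 h, gave 439 in place of 265 genes different from vegetative cells. It moved the medians of ribosomal proteins to 2.67 (large) and 2.70 (small), purine and amino acid synthesis both to 1.73, sulfur to 2.56, vitamins to 2.88 and autophagy to -1.60. Centring each block moved the ammonium median to 0.43. Means in place of medians gave -0.27 for MBF regulators, 0.62 for cytosolic chaperones, -1.07 for fermentation, 0.76 for iron and copper, -0.39 for zinc, 0.42 for phosphate and -1.92 for minus mating type genes, and mean and median differ in sign for MBF regulators, zinc, phosphate, kinetochore genes (mean -0.20) and the respiratory chain (mean -0.05). Were the logarithm natural, 1087 genes would be at least 2-fold higher and 1007 lower at 6 h. Of the genes run, gpi1 (0.98), tyw3 and psl1 (both 0.91) no longer passed the limit with block centring, nor did SPCC645.12c (0.97) with centring. Other named genes near a limit were not run. Among these, rpf1 and erv46 (both 1.003) and dis2 (1.012) would fall below the limit if the gene median of 0.037 were taken off. The balance of genes over G0 turned from 744 higher and 712 lower to 715 and 741 with centring and 696 and 749 with block centring.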
